A study of Homo sapiens with 12 samples.

Results

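The integrin subunit genes followed here are ITGAV, ITGA2, ITGA3, ITGA5 and ITGA6, which encode α chains, and ITGB1, ITGB3 and ITGB5, which encode β chains. They were taken as the rows of the raw count table whose Ensembl identifiers carry these symbols in GENCODE release 29, and all 8 were found among the 25141 genes of the table. They are 8 of 26 human integrin subunit genes, and the other 18 are described after them as a comparison. All 8 members passed edgeR's filter on low counts, as did 12542 genes in all. The question put to the data was how abundant each subunit transcript was in HOS cells and how it differed in each comparison.

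The 12 libraries were made from HOS cells, which were derived from a human osteosarcoma, and fall into 4 groups of 3. The libraries labelled upCIN85 came from a geneticin-resistant pool of HOS cells carrying the pRc/CMV2-Rukl plasmid for full-length CIN85, an adaptor protein encoded by SH3KBP1, and Mock cells carried the empty vector. In the siRNA experiment, the siCIN85 cells were given several CIN85 siRNAs together and the siNeg cells a non-targeting siRNA. All 4 groups share the parental line, and nothing in the labels says that the libraries of a group came from separate cultures, so the P-values measure the spread among these libraries, which may be technical.

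Integrins are transmembrane receptors made of 1 α and 1 β chain that pair before they reach the cell surface. The pair sets the ligand: αvβ3 and αvβ5 bind vitronectin and other proteins with an RGD motif, α5β1 binds fibronectin, α2β1 binds collagen, and α3β1 and α6β1 bind laminins. The cytoplasmic tails are tied to actin through adaptors such as talin, kindlins and paxillin, and surface levels are set in part by endocytosis and recycling, the process in which CIN85 is best known as an adaptor of the ubiquitin ligase CBL. Integrins govern how osteoblastic and osteosarcoma cells attach to bone matrix and move on it.

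Total counts were between 3540641 and 6049458 per library, and every siRNA library was shallower than every plasmid library. SH3KBP1 had 77.5 ± 5 CPM (TMM-normalized counts, mean ± SD, n = 3 as for all group means that follow) in Mock and 81.3 ± 9.61 in the libraries labelled upCIN85, a log2FC of 0.07 (SE 0.16, adjusted P = 0.887), so a higher CIN85 transcript level was not seen in these counts and every direction given for upCIN85 rests on the label. Read positions were not analysed here, so how far plasmid transcripts were counted on this gene was not tested. According to the study, the pool was analysed for CIN85 by western blotting, and the full-length protein is reported as overexpressed in the upCIN85 cells. That protein measure was not used here. In the knockdown SH3KBP1 fell from 85.1 ± 2.37 to 7.54 ± 3.19 CPM (log2FC -3.51, adjusted P = 5.09e-08). Of the HOS markers, VIM (551 CPM over all libraries), COL1A1 (733), SPARC (520), COL1A2 (68.3) and RUNX2 (20.9) were present and ALPL, alkaline phosphatase of osteoblasts, was at 1.33 CPM. The leukocyte marker PTPRC, the endothelial PECAM1 and the platelet ITGA2B lay at 0.0241, 0.399 and 0.65 CPM, while the epithelial EPCAM reached 38.5 CPM. MYH11, the smooth muscle marker, was looked for and was not among the genes of the count table. EPCAM was 39.2 ± 3.62 CPM in Mock and 52.1 ± 9.45 in upCIN85 in the plasmid experiment, and 34.1 ± 3.7 and 28.6 ± 4.9 in siNeg and siCIN85, and its part in the results below was not tested. In bulk libraries such as these, fewer cells with a transcript and less of it per cell cannot be told apart.

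The promoters of ITGAV and ITGA2 are shown because these are the members that passed the main test, in opposite directions. Each run is the 250 bases before the RefSeq start site on GRCh38.p14, read 5′ to 3′ on the plus strand, chr2:186589806-186590055 for ITGAV and chr5:52989102-52989351 for ITGA2, with motif matches in capitals.
ITGAV promoter: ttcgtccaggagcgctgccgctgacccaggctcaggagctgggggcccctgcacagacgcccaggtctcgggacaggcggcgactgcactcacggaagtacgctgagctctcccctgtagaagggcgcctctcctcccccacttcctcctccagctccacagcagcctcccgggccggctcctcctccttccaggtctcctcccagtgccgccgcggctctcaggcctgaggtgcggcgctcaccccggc
ITGA2 promoter: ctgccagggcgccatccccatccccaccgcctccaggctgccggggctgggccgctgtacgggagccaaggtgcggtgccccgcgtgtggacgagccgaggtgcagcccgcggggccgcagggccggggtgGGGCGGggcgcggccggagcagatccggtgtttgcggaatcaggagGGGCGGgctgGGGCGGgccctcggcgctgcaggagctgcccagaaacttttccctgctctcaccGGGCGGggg
The motifs searched on both strands were the GC box GGGCGG, the CCAAT box CCAAT, the TATA box TATAAA, the AP-1 motif TGANTCA and the ETS motif CCGGAA. The ITGA2 window held 4 GC boxes, none overlapping another match, and the ITGAV window held no match to any of the 5 motifs. Of 35116 RefSeq promoter windows of this length, 42.6% held GGGCGG, 32.0% CCAAT, 10.7% TATAAA, 6.57% TGANTCA and 14.5% CCGGAA. Both windows were rich in G and C, at 70.8% for ITGAV and 76.4% for ITGA2 against a median of 58.0% over all windows. RefSeq windows were matched for 6 of the 8 members, and besides ITGA2 the GC box was found in those of ITGB1, ITGB5 and ITGA5 and not in that of ITGA6, which held TATAAA instead. Those of ITGB1 and ITGB5 also held CCGGAA.

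By level, ITGAV was the leading member. It encodes αv, the chain shared by αvβ3 and αvβ5, and its mean over the 12 libraries was 157 CPM (range 91.7 to 204), above 89.2% of tested genes. ITGB5, its β5 partner, followed at 93.6 CPM (59 to 143). ITGA6, the laminin-binding α6 chain, had 76.3 CPM (54.5 to 99.5) and ITGB1, the β1 chain that pairs with the largest number of α chains, 74.1 CPM (62.3 to 86.3). ITGA3, the other laminin-binding α chain, had 58.3 CPM (37.2 to 83). These 5 genes formed an abundant set, all above the median tested gene at 27.0 CPM.

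The other members were lower. ITGA5, the fibronectin-binding α5 chain, had 18.7 CPM (10 to 30.1), ITGA2, the collagen-binding α2 chain, 10.9 CPM (5.09 to 29), and ITGB3, the β3 chain, 7.04 CPM (2.27 to 14.9). ITGA5 was sixth in 12 of 12 libraries, and the step from ITGA3 to ITGA5 (3.13-fold in mean CPM) was the only one between neighbours in the order whose ranges did not overlap. ITGA6 and ITGB1 had nearly the same mean, and ITGA6 was the higher of both in 9 of 12 libraries. ITGA2 was above ITGB3 in 8 of 12. The top and bottom means differed 22.3-fold, and the 8 genes together made up 434 to 547 CPM of a library, 78.8% to 87.0% of the CPM on all integrin subunit genes.

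The order held between the Mock and upCIN85 group means except that ITGA2 and ITGB3 exchanged the last places. In siNeg ITGB1 was second, before ITGB5 and ITGA6, and in siCIN85 ITGA6 was second and ITGB1 in the fifth place. ITGAV was first in all 4 group means and in 10 of 12 libraries. The kit reads the 3′ ends of transcripts, so CPM was not divided by length for this order. Per kilobase of the longest transcript, ITGAV (22.3 CPM per kb), ITGB5 (21.4) and ITGB1 (19.6) lay close together, followed by ITGA6 (13.6), ITGA3 (11.9), ITGA5 (4.2), ITGB3 (1.76) and ITGA2 (1.39), and 4 of the 8 genes kept their place.

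**Figure D1:**
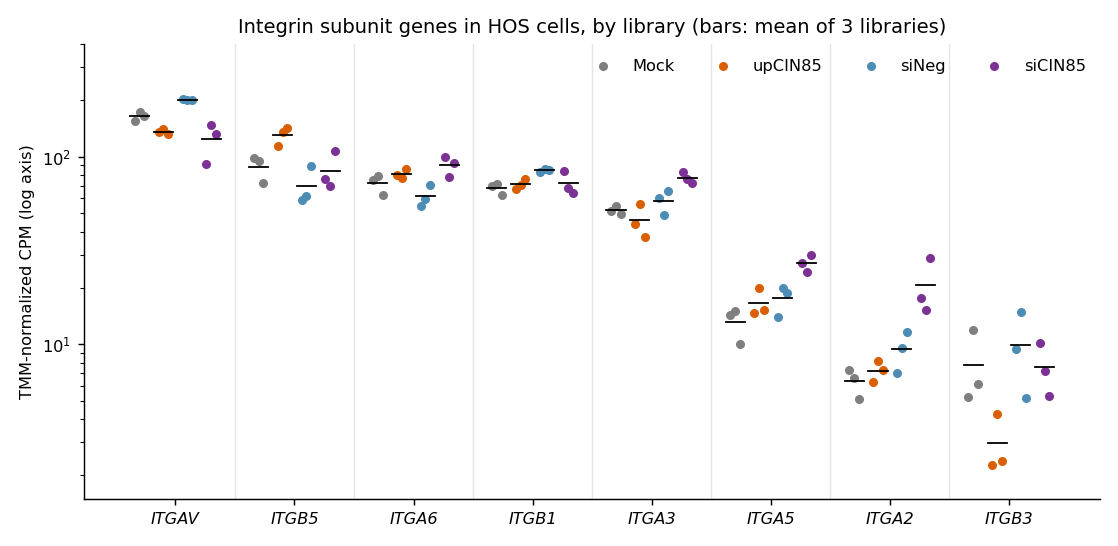
TMM-normalized CPM (log axis) of the 8 integrin subunit genes, 1 point per library and a bar at the mean of 3 libraries, coloured by group and ordered by mean over all libraries. ITGAV is highest in every group mean, the 3 siCIN85 points of ITGA2 (15.3 to 29 CPM) lie above the 3 siNeg points (7 to 11.7), and the 3 upCIN85 points of ITGB3 (2.27 to 4.25) lie below the Mock points (5.27 to 11.9).

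In siCIN85 versus siNeg, the α chains ITGAV and ITGA2 passed the test, in opposite directions. ITGAV (chromosome 2, 186590065 to 186680901) was 204, 201 and 201 CPM in siNeg and 91.7, 148 and 132 in siCIN85. Every knockdown library was below every control library, and siCIN85 replicate 1 was the lowest. It fell by 0.71 on the log2 scale (SE 0.13, 95% confidence interval -0.99 to -0.43, adjusted P = 0.0189), to 0.612 times the control level. A gene on the opposite strand overlaps the end of ITGAV in GENCODE. Whether the counting used strand is not given in the sources used here. ITGA2 (chromosome 5, 52989326 to 53094779) was 7, 9.53 and 11.7 CPM in siNeg, from 28 to 45 counts, and 17.7, 15.3 and 29 in siCIN85, from 53 to 110 counts. The groups did not overlap, and siCIN85 replicate 3 stood highest. ITGA2 rose 2.20-fold (95% confidence interval 1.51 to 3.20, log2FC 1.14, SE 0.26, adjusted P = 0.0413). These 2 of 8 members compare with 1.04% of all tested genes that passed in this comparison, 0.59% higher and 0.454% lower. The members were chosen with earlier results of these data known, so this contrast is no test of the set.

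Both calls depended on single libraries, and both were lost in the fit of the 6 siNeg and siCIN85 libraries alone. Without siNeg replicate 1, siNeg replicate 2, siCIN85 replicate 1 or siCIN85 replicate 3 the adjusted P of ITGAV was 0.0737, 0.0735, 0.0738 and 0.0571, and that of ITGA2 was 0.162, 0.163, 0.128 and 0.191. The log2FC stayed between -0.87 and -0.53 for ITGAV and between 0.81 and 1.31 for ITGA2 over all settings tried, with adjusted P from 2.71e-06 to 0.0738 and from 0.000333 to 0.191.

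Of the remaining α chains, none passed the main test in the knockdown, while the libraries of 3 did not overlap. ITGA6 was 54.5, 59.9 and 71.1 CPM in siNeg and 99.5, 77.8 and 92.7 in siCIN85 (log2FC 0.54, SE 0.14, adjusted P = 0.061). With a replicate block for the knockdown libraries, which their numbers pair, ITGA6 passed (log2FC 0.54, adjusted P = 0.0274) and was the only further member to do so, in a fit that called 3.42% of all tested genes. ITGA5 was 14, 20 and 18.8 CPM in siNeg against 27.2, 24.3 and 30.1 in siCIN85 (log2FC 0.63, SE 0.20, adjusted P = 0.13). ITGA3 was 60.0, 49.1 and 65.9 CPM against 83.0, 76.1 and 72.4 (log2FC 0.40, SE 0.15, adjusted P = 0.197). For each of these genes all siCIN85 libraries were above all siNeg libraries. With the replicate block in both experiments ITGA6, ITGA5 and ITGA3 all passed, in a fit that called 968 of 12542 tested genes.

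The libraries of the β chains overlapped between siNeg and siCIN85. ITGB1 was 83.2, 86.3 and 84.9 CPM in siNeg and 84.5, 68.0 and 63.9 in siCIN85 (log2FC -0.23, 95% confidence interval -0.49 to 0.02, adjusted P = 0.363). ITGB5 was 59.0, 61.6 and 89.3 CPM in siNeg and 76.0, 70.0 and 107 in siCIN85 (log2FC 0.27, -0.11 to 0.66, adjusted P = 0.486). In both genes a library of one group lay within the range of the other, although ITGB5 was higher in siCIN85 in each same-numbered pair. ITGB3, with 20 to 61 counts in these libraries, was 9.50, 14.9 and 5.21 CPM in siNeg and 10.2, 7.23 and 5.28 in siCIN85 (log2FC -0.38, -1.20 to 0.44, adjusted P = 0.676), and without siNeg replicate 2 its log2FC was 0.03.

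Over the 8 members the knockdown gave 4 genes whose libraries lay wholly higher and 1 wholly lower, against 9.91% and 10.2% of all tested genes. At an unadjusted P below 0.05 there were 5 members, against 15.7% of tested genes. The median log2FC of the 8 members was 0.34, beside -0.01 for all tested genes. Because earlier results of these data were known when the members were chosen, these shares only describe them. The 4 higher genes are all α chains that pair with β1, and ITGB1 itself was not among them. Other listed α partners of β1 lay the other way. ITGAV and, outside the set, ITGA1 were wholly lower in siCIN85 (log2FC -0.71 and -1.05). ITGA11, ITGA7 and ITGA4, also outside the set, were below 0 with overlapping libraries (-0.36, -0.26 and -0.11).

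**Figure D2:**
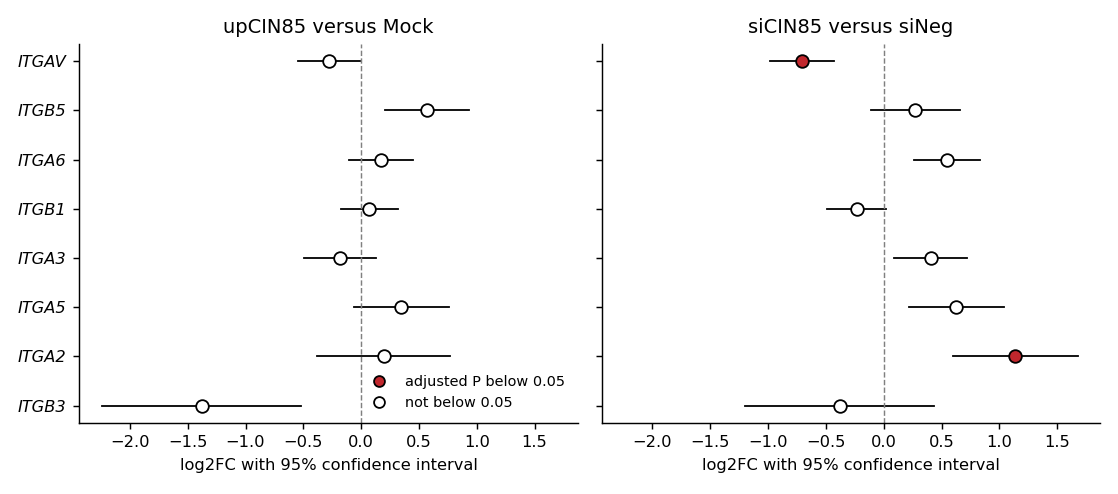
Log2FC (horizontal axis) with 95% confidence intervals for the 8 genes in upCIN85 versus Mock (left) and siCIN85 versus siNeg (right), from the edgeR fit of 12 libraries, with filled points where the adjusted P was below 0.05. The filled points are ITGAV (-0.71) and ITGA2 (1.14), both in the knockdown.

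In upCIN85 versus Mock, 0 of the 8 members passed edgeR's test, against 1.23% of tested genes, and 3 had an unadjusted P below 0.05, against 14.5%. DESeq2 gave 2 with the 6 libraries of this comparison and 0 with all 12. The replicate block in both experiments, which pairs the plasmid libraries too, gave 2. That fit called 1035 of 12542 tested genes in this comparison. The largest differences were those of ITGB3 and ITGB5, whose β3 and β5 chains pair with αv. ITGB3 (chromosome 17, 47253846 to 47311816) was 5.27, 11.9 and 6.14 CPM in Mock, from 28 to 70 counts, and 2.27, 4.25 and 2.38 in the libraries labelled upCIN85, from 13 to 26 counts. All upCIN85 libraries were below all Mock libraries, and replicate 2 was the highest of its group in both. The log2FC was -1.38 (SE 0.41, 95% confidence interval -2.24 to -0.52, adjusted P = 0.1). A readthrough gene on the same strand and an antisense gene overlap the end of ITGB3 in GENCODE, and whether the counting used strand is not given in the sources used here, so the ITGB3 count may be divided or mixed at its 3′ end. Genes on the opposite strand also overlap the ends of ITGAV, ITGA5 and ITGA6, and of ITGA1 outside the set. Their counts may likewise be mixed if strand was not used.

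ITGB5 lay the other way. It was 98.6, 94.6 and 72.6 CPM in Mock and 115, 136 and 143 in the libraries labelled upCIN85, without overlap. Its log2FC was 0.57 (SE 0.17, 95% confidence interval 0.20 to 0.94, adjusted P = 0.11). Settings decided the call for both genes. With the block in the knockdown libraries only, which leaves the plasmid libraries unpaired but lowers the shared spread, ITGB3 and ITGB5 had adjusted P of 0.0304 and 0.013, in a fit that called 4.35% of all tested genes. In DESeq2 on the 6 libraries these were 0.041 and 0.00879, and in DESeq2 on all 12 they were 0.0586 and 0.0718. Both genes also passed with no filter on low counts and with the block in both experiments. Over all settings tried the adjusted P ran from 0.000294 to 0.441 for ITGB3 and from 0.00201 to 0.378 for ITGB5.

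ITGAV was 156, 174 and 166 CPM in Mock and 135, 140 and 133 in the libraries labelled upCIN85. The groups did not overlap and the log2FC was -0.28 (SE 0.13, adjusted P = 0.326). The other α chains overlapped between these groups. ITGA5 was 14.3, 15.1 and 10 CPM in Mock and 14.7, 20.1 and 15.3 in upCIN85 (log2FC 0.35, 95% confidence interval -0.07 to 0.76, adjusted P = 0.442). ITGA2, with 29 to 50 counts, was 7.34, 6.62 and 5.09 CPM against 6.29, 8.17 and 7.31 (log2FC 0.20, -0.38 to 0.77, adjusted P = 0.796). Neither interval leaves out a difference of the size seen for ITGB5.

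The laminin-binding chains and ITGB1 had narrower intervals. ITGA6 was 75.1, 79.1 and 62.4 CPM in Mock and 79.9, 77.0 and 86.7 in upCIN85 (log2FC 0.17, -0.11 to 0.44, adjusted P = 0.599). ITGA3 was 51.7, 54.8 and 49.3 CPM against 44.1, 56.2 and 37.2 (log2FC -0.18, -0.49 to 0.13, adjusted P = 0.627). ITGB1 was 69.8, 71.8 and 62.3 CPM against 67.5, 70.9 and 75.8 (log2FC 0.07, -0.18 to 0.32, adjusted P = 0.835). ITGB1 had the smallest log2FC of the members here. Over the set, 1 gene was wholly higher and 2 wholly lower in upCIN85, against 9.74% and 11.0% of tested genes, with a median log2FC of 0.12 beside 0.01 for all tested genes.

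**Figure D3:**
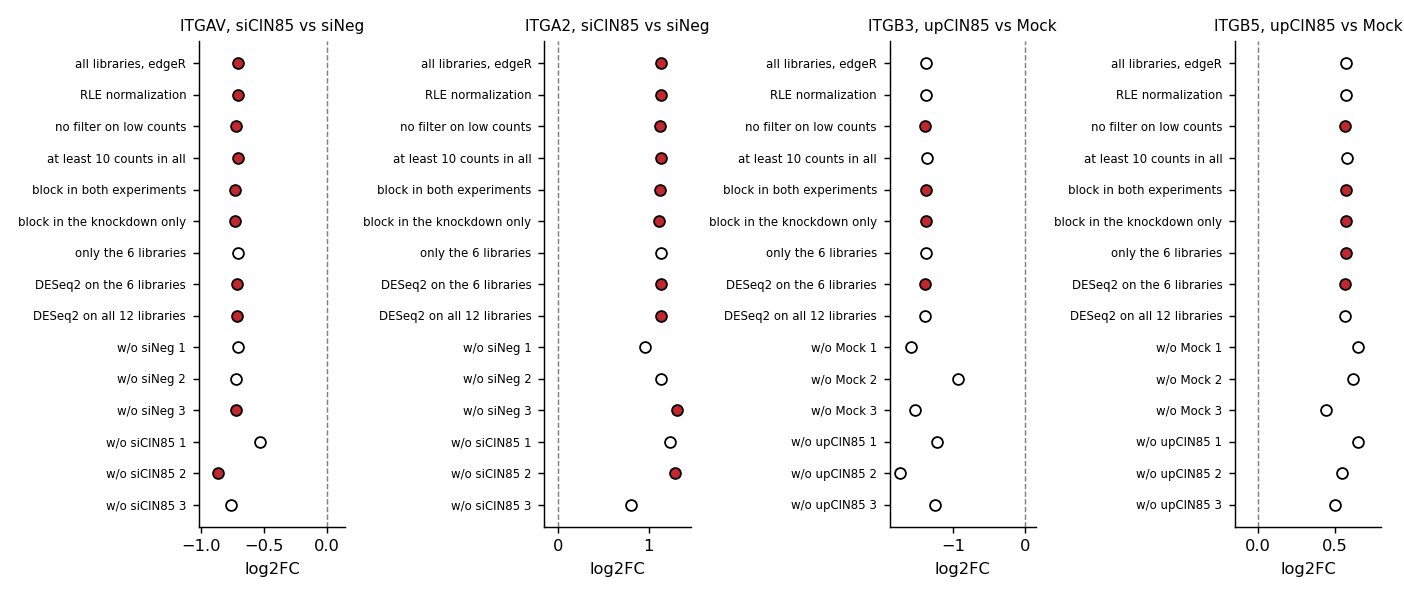
Log2FC (horizontal axis) of ITGAV and ITGA2 in siCIN85 versus siNeg and of ITGB3 and ITGB5 in upCIN85 versus Mock, with 1 row per setting of the analysis, w/o marking the library left out and filled points an adjusted P below 0.05. No point crosses 0, and ITGAV ranges from -0.87 to -0.53 and ITGA2 from 0.81 to 1.31. Both lose the filled mark when any of 4 of the 6 siNeg and siCIN85 libraries is left out, and when these 6 are fitted alone.

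The control groups of the plasmid and siRNA experiments were compared to see how far the members differed with no change of CIN85. Of the 8 genes, 0 passed edgeR's test in siNeg versus Mock, against 0.526% of tested genes, and 2 had an unadjusted P below 0.05, against 12.4%. DESeq2 also gave 0, with 6 or 12 libraries. ITGB1 (68.0 ± 5.03 CPM in Mock, 84.8 ± 1.53 in siNeg, log2FC 0.32, adjusted P = 0.263) and ITGAV (165 ± 8.86 and 202 ± 2.15, log2FC 0.29, adjusted P = 0.367) were wholly higher in siNeg, as were 9.48% of tested genes. No member was wholly lower, against 9.94%. Shallower sequencing and the siRNA experiment go together in these groups and cannot be told apart.

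The effects of overexpression and knockdown were then set against each other, in a fit where each has its own control. None of the 8 members passed edgeR's test of the difference, against 0.973% of tested genes, and DESeq2 on 12 libraries gave 0. At an unadjusted P below 0.05 there were 3, against 14.5%. They were ITGA3 (overexpression minus knockdown effect -0.58 on the log2 scale, adjusted P = 0.203), ITGA2 (-0.94, adjusted P = 0.255) and ITGAV (0.43, adjusted P = 0.284). For ITGAV both effects were below 0, so the level was lower with the plasmid and with the siRNA than in the respective control, and only the knockdown passed the test.

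Since α and β chains leave the cell's interior as pairs, the levels of partners were compared within each library. The sum of the 5 listed β partners of ITGAV (ITGB1, ITGB3, ITGB5, ITGB6 and ITGB8) divided by ITGAV was 1.13, 1.03 and 0.856 in Mock and 1.39, 1.51 and 1.69 in upCIN85, 1.53-fold higher by geometric means. In siNeg it was 0.743, 0.816 and 0.899 and in siCIN85 1.86, 0.982 and 1.35, 1.65-fold higher by geometric means. The ratio was higher without overlap in both comparisons (exact permutation test, two-sided, P = 0.1 in each, the smallest that 3 libraries against 3 allow). With each library left out in turn the log2 difference lay between 0.50 and 0.70 for upCIN85 and between 0.49 and 0.95 for siCIN85.

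For β1, the CPM of its 12 listed α partners divided by ITGB1 was 5.06 ± 0.145 in Mock and 4.54 ± 0.247 in upCIN85, lower without overlap (log2 difference -0.16, exact permutation test, P = 0.1). In the knockdown it was 4.85 ± 0.182 in siNeg and 5.38 ± 0.939 in siCIN85, and the groups overlapped (log2 difference 0.13, exact permutation test, P = 0.5). The siCIN85 libraries spread from 4.34 in replicate 1 to 6.16 in replicate 3. The ratios are of transcripts, and the chains themselves were not measured. Both sums share ITGAV and ITGB1, so the ratios are not independent of each other or of the single genes.

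**Figure D4:**
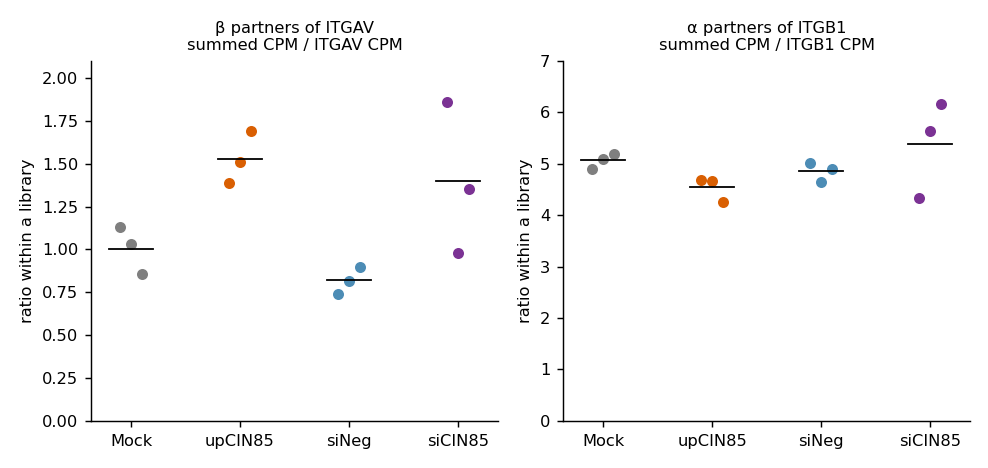
Ratio of summed CPM of the β partners of ITGAV to ITGAV (left) and of the α partners of ITGB1 to ITGB1 (right), 1 point per library with a bar at the group mean. On the left the upCIN85 points (1.39 to 1.69) lie above Mock (0.856 to 1.13) and the siCIN85 points (0.982 to 1.86) above siNeg (0.743 to 0.899).

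Of the 18 integrin subunit genes outside the set, 16 were in the table and 8 were tested. In upCIN85 versus Mock and in siCIN85 versus siNeg 0 of these 8 passed edgeR's test, against 1.23% and 1.04% of all tested genes. At an unadjusted P below 0.05 there were 0 and 1, against 14.5% and 15.7%. With the block in the knockdown 0 and 1 passed, against 4.35% and 3.42%. The median log2FC of these 8 was 0.11 and -0.19. ITGAE, the αE chain known from intraepithelial T cells, had the highest level at 46.3 CPM and was between 44.6 and 49.4 in every group mean. ITGA4 was at 7.34 CPM, ITGA11, a collagen-binding chain, at 6.71, ITGB2, the leukocyte β2 chain, at 3.51 and ITGB4, the β4 partner of α6, at 1.39. ITGAM reached 1.17 CPM only in the siCIN85 mean, from at most 10 counts.

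ITGA1, which encodes the collagen-binding α1 chain and precedes ITGA2 on the same strand of chromosome 5 (52787896 to 52959210), lay opposite to ITGA2 in the knockdown. It was 44.0, 30.8 and 18.0 CPM in siNeg and 17.7, 16.8 and 10.3 in siCIN85, a narrow gap without overlap (log2FC -1.05, SE 0.28, adjusted P = 0.0755). With the replicate block it passed (log2FC -1.02, adjusted P = 0.00763). ITGA1 was 12.6, 12.7 and 9.47 CPM in Mock and 8.57, 5.56 and 8.33 in upCIN85 (log2FC -0.63, adjusted P = 0.348). It was also higher in siNeg than in Mock (log2FC 1.41, adjusted P = 0.0261), as was ITGA7, a laminin-binding α chain of muscle (8.36 ± 0.933 to 18.1 ± 2.88 CPM, log2FC 1.12, adjusted P = 0.0346). ITGB8, another β partner of αv, had 5 to 21 counts in the plasmid experiment and 0 to 5 in the siRNA experiment, too few in the latter for a fold change.

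**Figure D5:**
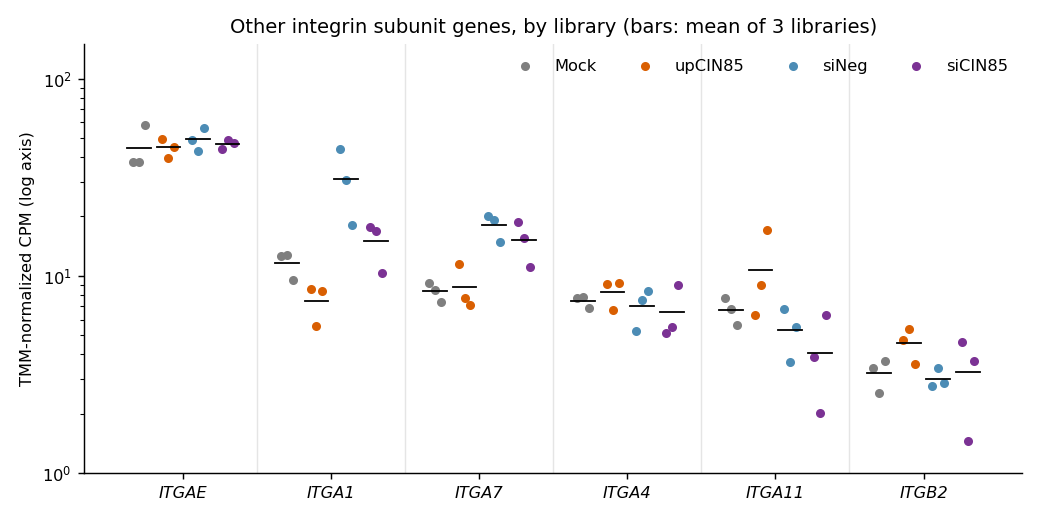
TMM-normalized CPM (log axis) of 6 integrin subunit genes outside the set, 1 point per library with a bar at the mean of 3 libraries. ITGAE is level over the groups (44.6 to 49.4 CPM), and the siNeg points of ITGA1 (18.0 to 44.0 CPM) lie above those of Mock and siCIN85.

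Around the receptors, 29 genes of extracellular ligands were listed and 23 tested. In siCIN85 versus siNeg 1 passed edgeR's test as lower and 0 as higher, against 1.04% of all tested genes. The median log2FC was -0.29, and 10 of the 23 had an unadjusted P below 0.05, against 15.7% of all tested genes. This list was chosen with earlier results of these data known, so its shares in either CIN85 comparison are no test of the list. The gene that passed was COL3A1, the chain of type III collagen, which went from 126 ± 18.3 to 39.2 ± 5.43 CPM (log2FC -1.69, SE 0.29, adjusted P = 0.013). Its adjusted P reached 0.0967 when single libraries were left out, and siNeg replicate 2, siCIN85 replicate 1 and siCIN85 replicate 3 each ended the call. With the replicate block, which called 3.42% of all tested genes here, 5 ligand genes passed, all lower in siCIN85. They were COL3A1, COL1A1 (adjusted P = 0.0353), the fibronectin gene FN1 (0.0348), the fibrillin gene FBN1 (0.0356) and EDIL3 (0.00523), which encodes an RGD-containing ligand of αv integrins.

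In upCIN85 versus Mock 1 ligand gene passed edgeR's test as higher and 0 as lower, against 1.23% of all tested genes. The median log2FC was -0.14, and 13 of the 23 had an unadjusted P below 0.05, against 14.5% of all tested genes. The gene that passed was COL1A2, the α2 chain of type I collagen, at 57.2 ± 24 CPM in Mock and 145 ± 75.9 in upCIN85 (log2FC 1.35, SE 0.31, adjusted P = 0.0439), whose groups overlapped. The call was lost without Mock replicate 2, Mock replicate 3, upCIN85 replicate 1 or upCIN85 replicate 3, with the 6 libraries alone and with DESeq2 on 6 or 12 libraries (adjusted P 0.0568 to 0.277). With the block in the knockdown libraries, which called 4.35% of all tested genes in this comparison, COL1A2 and the osteopontin gene SPP1 (log2FC 2.08, adjusted P = 0.0222) passed as higher, and the type IV collagen genes COL4A1 (-0.72, adjusted P = 0.00184) and COL4A2 (-0.53, adjusted P = 0.0117) as lower. SPP1 rested on few counts, 6 to 12 in Mock and 16 to 78 in upCIN85. Its log2FC was also above 0 in siCIN85 versus siNeg (1.19, adjusted P = 0.356 without the block). The ligand genes of highest level were COL1A1 (733 CPM), CCN1 (679) and CCN2 (619), the latter 2 matricellular proteins that bind integrins.

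Of 32 genes of cytoplasmic adaptors 30 were tested. In siCIN85 versus siNeg 1 passed edgeR's test as higher and 1 as lower, against 1.04% of all tested genes. At an unadjusted P below 0.05 there were 7, against 15.7%. In the knockdown PXN, which encodes paxillin, rose from 117 ± 7.16 to 167 ± 5.99 CPM (log2FC 0.51, SE 0.10, adjusted P = 0.0253), and FERMT2, which encodes the integrin activator kindlin-2, fell from 341 ± 46.8 to 199 ± 60.8 (log2FC -0.78, SE 0.17, adjusted P = 0.0305). Both calls were lost with the 6 libraries alone and without siNeg replicate 1, siNeg replicate 2, siCIN85 replicate 1 or siCIN85 replicate 3, with adjusted P of up to 0.152 for PXN and 0.178 for FERMT2. In the plasmid experiment PXN was 154 ± 8.17 CPM in Mock and 169 ± 18.2 in upCIN85. Its siNeg libraries lay wholly below Mock (log2FC -0.41, adjusted P = 0.0866). With the block RSU1, a partner of the PINCH adaptors, also passed as lower in siCIN85 (log2FC -0.66, adjusted P = 0.0145). In upCIN85 versus Mock 0 adaptor genes passed edgeR's test and 5 had an unadjusted P below 0.05, against 14.5% of all tested genes. With the block the kindlin-1 gene FERMT1 (log2FC 0.86, adjusted P = 0.0174) passed as higher and the vinculin gene VCL (-0.36, adjusted P = 0.0249) as lower. The adaptor medians were -0.08 in upCIN85 and -0.06 in siCIN85, and the highest levels were those of ACTN4 (968 CPM), ACTN1 (962) and FLNA (765), which crosslink actin.

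Of 26 genes of tetraspanins and integrin traffic, which organize integrins in the membrane and carry them through endosomes, 23 were tested. In both comparisons 0 passed edgeR's test, with or without the block, and 1 had an unadjusted P below 0.05 in upCIN85 and 4 in siCIN85, against 14.5% and 15.7% of all tested genes. The medians were -0.09 and -0.04. The endosomal tetraspanin CD63 (983 CPM), the clathrin heavy chain CLTC (666) and the caveolin CAV1 (520) were the highest.

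The genes whose pattern over the 12 libraries lay closest to ITGAV, by Pearson r of log2 CPM among 10399 genes of at least 5 CPM, were TMEM106C (r = 0.949), the claudin gene CLDN1 (0.948) and ZDHHC6 (0.924). For ITGA2 they were HDAC9 (0.958), ARHGAP31 (0.935) and the member ITGA5 (0.933). All points of a pair come from the same libraries and carry the differences between groups. Among these 6 genes CLDN1 passed edgeR's test in upCIN85 versus Mock (log2FC -1.51, adjusted P = 0.0106) and in siCIN85 versus siNeg (log2FC -1.92, adjusted P = 0.00508), lower in both as ITGAV was.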

How the data were processed

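RNA-seq of 12 HOS libraries in 4 groups of 3 was analysed. The authors made libraries with a 3′ end kit that adds molecular identifiers and deposited raw counts per Ensembl gene from featureCounts; the submitters' processing notes name GRCh38, cutadapt 4.3, STAR 2.7.3a, Picard 2.25.6 and Subread 2.0, while the annotation, the strand setting and any collapsing of identifiers are not given in the sources used here. Totals of 3540641 to 6049458 counts limit genes with few counts, such as ITGB3, most. Gene names and positions came from GENCODE 29 on GRCh38, where 95 identifiers had no match, and promoters from RefSeq.

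Counts were tested in R 4.3.3 with the quasi-likelihood test of edgeR 4.0.16 (filterByExpr minimum 10 and total 15, TMM, 12 libraries, 8 residual degrees of freedom). Adjusted P-values in the text are Benjamini-Hochberg values over 12542 genes from this fit unless DESeq2 1.42.0, the block or another setting is named, and the threshold was 0.05. Fits with another filter, 6 libraries or a library left out were adjusted over the genes tested in each fit. SE is the absolute log2FC over the square root of F. The groups, from the labels, were compared as upCIN85 versus Mock, siCIN85 versus siNeg and siNeg versus Mock, and the first of these effects was set against the second. Deviations from the group means correlated across genes in each same-numbered pair of siNeg and siCIN85 (r = 0.353, 0.269 and 0.446), so the labels' numbers were taken to pair these libraries. In Mock and upCIN85 r was 0.326, 0.227 and 0.0989, also above every different-numbered pair of these groups (-0.298 to 0.0303). These libraries were left unpaired in the knockdown block and paired only in the block in both experiments. The main fit used no block. Alternatives were RLE scaling, other filters, the block, 6-library fits, DESeq2 and leaving out each library. Similar patterns used log2(CPM + 0.5). The tests were also run on simulated counts. These were drawn independently for each library, so they do not cover the pairing seen between same-numbered libraries. Replicates were compared and none was a duplicate.

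Genes outside the set were named when another integrin subunit had a group mean of at least 1 CPM, or when a list gene passed in either CIN85 comparison, was one of the 3 highest of its list, or was one of the 3 genes closest to a member that passed; MYH11 was looked for as a marker. Genes passing only under the block were added after their values were seen. The members and lists were chosen with earlier results of these data known.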

Additional observations from a re-analysis of the deposited data

Results flagged for a closer look

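COL1A1, COL1A2, COL3A1 and SH3KBP1 differed between the effect of overexpression and the effect of knockdown in edgeR's test of that difference, none of them an integrin subunit. The difference (upCIN85 minus Mock, minus siCIN85 minus siNeg, on the log2 scale) was 2.61 for COL1A2 (SE 0.48, adjusted P = 0.0151) 2.57 for COL3A1 (SE 0.39, adjusted P = 0.0044) and 1.27 for COL1A1 (SE 0.28, adjusted P = 0.0381), all ligands of collagen-binding integrins. For SH3KBP1, the gene that was silenced, it was 3.58 (adjusted P = 1.65e-06), from a log2FC of 0.07 in upCIN85 versus Mock and -3.51 in siCIN85 versus siNeg.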

How the results depend on the processing

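The number of members passing in upCIN85 versus Mock was 0 and became 2 with no filter on low counts, 2 with the replicate block in both experiments, 2 with the knockdown block alone, 1 with the 6 libraries alone (ITGB5, adjusted P = 0.0398) and 2 with DESeq2 on the 6 libraries; it was 0 with each library left out. In siCIN85 versus siNeg it was 2 and became 5 with the block in both experiments (ITGA3, ITGA5 and ITGA6 added) and 0 with the 6 libraries alone, was 3 with no filter, with the knockdown block alone and with DESeq2 on 12 libraries (ITGA6 added in each), and lay between 0 and 3 with a library left out, the 3 including ITGA6 without siNeg replicate 3 or siCIN85 replicate 2. For the difference of both effects it was 0, 1 with the block in both experiments (ITGA3, adjusted P = 0.0336) and 0 to 1 with a library left out, the 1 being ITGA3 without upCIN85 replicate 2 (adjusted P = 0.0479). In siNeg versus Mock it was 0 throughout. Over all tested genes, 154 passed in upCIN85 versus Mock and 131 in siCIN85 versus siNeg, which became 637 and 617 with no filter, 1035 and 968 with the block in both, 545 and 429 with the knockdown block alone, 281 and 50 with 6 libraries, 364 and 192 with DESeq2 on 6 libraries, 300 and 298 with DESeq2 on 12, and 25 to 260 and 9 to 362 with a library left out. The knockdown block added ITGA6 in siCIN85 versus siNeg and ITGB3 and ITGB5 in upCIN85 versus Mock and changed no other call of a member. All 8 genes kept their place in the order by level with CPM of library totals, but 4 did per kilobase, 2 in siNeg replicate 1 alone, 3 in siNeg replicate 2, 3 in siCIN85 replicate 1 and 4 in siCIN85 replicate 2. With a library left out the sign of log2FC changed for SH3KBP1 in upCIN85 versus Mock (-0.011 to 0.15, below 0 without upCIN85 replicate 2) and for ITGB3 in siCIN85 versus siNeg (-0.69 to 0.033) and siNeg versus Mock (-0.074 to 0.79), in both without siNeg replicate 2. RLE scaling changed no call of a member. The causes were not tested. Counts of 13 to 70 for ITGB3 leave wide intervals, intervals cover the spread of 3 libraries only, and no protein was measured.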
